A study of Mus musculus with 8 samples.

Results

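The genes described here are those of the endoplasmic reticulum (ER) stress response and of secretory protein folding. A list of 41 genes was taken by symbol: the chaperones and isomerases of the ER lumen, the sensors and transcription factors of the unfolded protein response, their targets, and the machinery of protein degradation and export. The table of the series held a row for 40 of them, out of 13687 genes, and Derl3 had no row. RNA was sequenced from primary peritoneal mesothelial cells (MCs) cultured from WT and CAV1-/- littermates. The CAV1-/- samples are labelled Cav-1-, and their strain is B6.Cg-CAV1tm1mls/J. Confluent cultures were kept static or stretched for 24 h, which gave 4 groups of 2 cultures each, and each animal gave 1 static and 1 stretched culture. WT replicates 1 and 2 came from animals 3 and 4, and CAV1-/- replicates 1 and 2 came from animals 1 and 2. All cells were released from the parietal peritoneum with trypsin and grown in serum, they lacked caveolin-1 from the germline in the CAV1-/- groups, and the age and sex of each of these 4 animals were not given in the sources used here. The study's methods state that the ex vivo experiments drew evenly on male and female mice. Levels are TMM-normalized CPM, that is reads scaled to a common library size with a library factor. Differences are on the log2(CPM + 1) scale and were tested with limma over 13665 genes, a gene being called at a Benjamini-Hochberg adjusted p under 0.05.

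Proteins bound for secretion or for a membrane enter the ER through the Sec61 channel, fold with the help of chaperones and disulfide isomerases, and leave in COPII-coated vesicles. When unfolded proteins accumulate, the sensors IRE1 (Ern1), PERK (Eif2ak3) and ATF6 act through the transcription factors XBP1, ATF4 and cleaved ATF6, which raise the transcription of chaperones, of the degradation machinery and of genes of amino acid supply. Mesothelial cells line the peritoneum and secrete lubricating and matrix proteins, which pass through this machinery.

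The promoters show which members carry the letters of known response elements. Of the 41 genes, 34 had a promoter window in RefSeq (GRCm38.p6), which runs from 250 bases before to 50 bases after the gene's start. Both strands were searched for the ER stress response element ERSE (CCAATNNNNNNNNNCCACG), for ERSE-II (ATTGGNCCACG), for the core TGACGTG of the unfolded protein response element (UPRE) and for the ATF4-type element CARE (TGATGNAA). ERSE and ERSE-II share the letters CCACG, and ATTGG is CCAAT read on the other strand. ERSE was found in 9 of the 34 windows, against 39 of 32851 promoters in all (0.119%). The 9 genes were Hspa5, Hsp90b1, Calr, Canx, Dnajc3, Creld2, Pdia6, Syvn1 and Derl3. ERSE-II stood in Dnajb11 and Herpud1 and in 12 of all promoters (0.0365%). The UPRE core stood in Hspa5, Kdelr3, Mia3, Sec23a and Sec24d (2.01% of all promoters), and CARE stood in Asns, Chac1, Herpud1 and Trib3 (3.97% of all promoters). These matches describe the letters and not bound sites. Since the list was made of genes of this response, the shares are no test of the list. The 220 bases before the start are printed for 9 members whose values carry the results below, 5′ to 3′ in the direction of the gene, with every match of the 4 motifs in capitals on whichever strand it reads.
Hspa5, chr2:34771870-34772089, plus strand: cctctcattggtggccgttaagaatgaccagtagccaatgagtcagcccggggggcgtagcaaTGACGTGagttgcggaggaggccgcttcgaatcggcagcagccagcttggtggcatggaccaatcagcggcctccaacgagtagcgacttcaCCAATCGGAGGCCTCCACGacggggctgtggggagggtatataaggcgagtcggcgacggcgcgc
Hsp90b1, chr10:86705445-86705664, minus strand: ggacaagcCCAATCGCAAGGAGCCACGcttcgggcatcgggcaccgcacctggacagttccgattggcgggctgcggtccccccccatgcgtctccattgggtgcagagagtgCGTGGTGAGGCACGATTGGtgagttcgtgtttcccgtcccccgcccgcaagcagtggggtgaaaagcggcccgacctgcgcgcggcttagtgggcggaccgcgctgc
Canx, chr11:50325674-50325893, minus strand: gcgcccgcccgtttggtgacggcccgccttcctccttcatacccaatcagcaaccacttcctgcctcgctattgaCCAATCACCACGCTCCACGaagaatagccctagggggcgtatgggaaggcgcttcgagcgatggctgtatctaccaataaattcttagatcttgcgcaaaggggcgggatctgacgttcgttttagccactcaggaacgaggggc
Creld2, chr15:88819426-88819645, plus strand: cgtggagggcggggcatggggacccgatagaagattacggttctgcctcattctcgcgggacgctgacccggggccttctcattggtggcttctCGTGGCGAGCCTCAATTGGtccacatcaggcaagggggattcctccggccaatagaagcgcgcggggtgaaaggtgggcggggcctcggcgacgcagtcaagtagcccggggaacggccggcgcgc
Herpud1, chr8:94386209-94386428, plus strand: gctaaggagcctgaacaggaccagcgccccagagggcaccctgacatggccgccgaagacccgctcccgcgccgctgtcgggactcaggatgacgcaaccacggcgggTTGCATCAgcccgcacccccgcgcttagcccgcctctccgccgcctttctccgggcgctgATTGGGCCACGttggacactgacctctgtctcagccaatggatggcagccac
Kdelr3, chr15:79516188-79516407, plus strand: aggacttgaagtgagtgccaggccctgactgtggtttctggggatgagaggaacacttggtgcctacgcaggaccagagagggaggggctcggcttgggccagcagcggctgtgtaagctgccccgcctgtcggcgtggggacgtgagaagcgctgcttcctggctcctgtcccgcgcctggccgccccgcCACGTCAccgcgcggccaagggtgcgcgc
Mia3, chr1:183369566-183369785, minus strand: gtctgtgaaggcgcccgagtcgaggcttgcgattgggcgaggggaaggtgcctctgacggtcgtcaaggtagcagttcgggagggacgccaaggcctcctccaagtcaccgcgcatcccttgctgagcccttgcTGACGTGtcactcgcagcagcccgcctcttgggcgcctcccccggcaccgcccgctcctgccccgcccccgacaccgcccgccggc
Asns, chr6:7693210-7693429, minus strand: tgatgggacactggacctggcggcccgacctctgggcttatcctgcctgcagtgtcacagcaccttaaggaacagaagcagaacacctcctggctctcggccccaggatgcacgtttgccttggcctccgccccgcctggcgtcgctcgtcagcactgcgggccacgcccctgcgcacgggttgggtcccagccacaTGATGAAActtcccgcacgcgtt
Chac1, chr2:119351022-119351241, plus strand: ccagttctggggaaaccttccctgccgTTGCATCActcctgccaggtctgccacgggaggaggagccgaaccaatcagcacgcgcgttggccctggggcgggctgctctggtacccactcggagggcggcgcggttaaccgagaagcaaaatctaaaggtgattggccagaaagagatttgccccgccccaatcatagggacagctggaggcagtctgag
Hspa5 carries an ERSE 65 to 47 bases and a UPRE core 157 to 151 bases before its start. Hsp90b1 carries 2 ERSE matches on opposite strands. The promoter window of Creb3l2 held none of the 4 motifs.

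The libraries held 9777738 to 21203938 reads, and all 4 stretched libraries were deeper than all 4 static ones. The least covered member still had 209 reads in its lowest library. Cav1, the targeted gene, stood at 764 and 275 CPM in static and 569.9 and 247 in stretched WT cultures, and at 34.5 and 18.9 in static and 20.0 and 12.8 in stretched CAV1-/- cultures. The summed level of 11 mesothelial markers was 2959 to 3898 CPM in WT and 854 to 1116 in CAV1-/- cultures, with 9 of the 11 lower in every CAV1-/- culture than in every WT culture. The sum of 14 leukocyte markers reached 5376 and 5339 CPM in the cultures of CAV1-/- replicate 1, against 85.7 to 523 in the other 6. Of the listed B cell and plasma cell markers only 4 had a row, Cd79a, Cd79b, Ms4a1 and Ighm, and they summed to 5.39 to 10.6 CPM. The plasma cell genes Jchain and Mzb1 had no row, so this sum covers plasma cells poorly. In bulk cultures, fewer cells of a type and less RNA per cell cannot be told apart. Their part in the results below was not tested.

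All 40 members were well expressed, with mean levels over the 8 cultures from 27.2 CPM for Chac1 to 1756 CPM for Hsp90b1. Per kilobase of exon, the isomerase P4hb (513 CPM per kb), Calr (500.3), Hsp90b1 (435), Pdia3 (379) and Hspa5 (310.2) were the highest. The kinase sensor Eif2ak3 was the lowest at 5.27 CPM per kb. Atf4 was the most abundant of the sensors and transcription factors, at 117 CPM per kb. Members of the degradation machinery lay between 15.0 and 46.1 CPM per kb. The range across cultures was narrow: for 35 members the highest culture was less than 2 times the lowest, and for 22 it was less than 1.5 times. The widest ranges were those of Trib3 (3.62 times), Chac1 (2.46 times) and Dnajb9 (2.30 times).

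The first question was what stretch did to these genes in WT and in CAV1-/- MCs. Most members were slightly higher after stretch in both genotypes, and Creb3l2, Dnajb9 and Canx had the largest differences averaged over genotypes. In WT, 32 of 40 were higher, with a median log2 difference of 0.17 against -0.02 over all genes tested. The WT median was 0.053 without the stretched culture of replicate 1, 0.32 without that of replicate 2 and 0.27 without the static culture of replicate 1. Leaving out 1 culture splits an animal's pair, so that the difference between animals enters these medians. Within animals, the median of members was 0.27 and 0.12 in WT replicates 1 and 2. It was 0.16 and 0.10 in CAV1-/- replicates 1 and 2. In CAV1-/- cells 34 were higher, with a median of 0.13 against 0.00 over all genes. Averaged over genotypes, the median was 0.16 (0.097 without the stretched culture of WT replicate 1), and no member differed by more than 0.5 on the log2 scale. Read within animals, 26 of 40 members were higher in the stretched culture of all 4 animals, where 14.5% of all genes tested were, and only Chac1 was lower in all 4, where 16.9% of all genes were. Without CAV1-/- replicate 1, the animal with the high leukocyte markers, 27 members were higher in all 3 remaining animals, beside 20% of all genes.

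None of these differences passed the adjusted threshold without a term for the animal. limma called no member and 0% of all genes in WT, 0% in CAV1-/- and 0% on average over genotypes. At an unadjusted p under 0.05 it held 3 members in WT (2.27% of all genes), 2 in CAV1-/- (2.09%) and 5 on average (4.73%), all of them higher. edgeR called 0 members and 0% of all genes in each of these comparisons. DESeq2 called 0 members, beside 0.022% of all genes in WT, 0.0512% in CAV1-/- and 0.249% on average. A limma fit with each animal as a block uses that both cultures of an animal deviated together from their group means. It called 201 of 13665 genes (1.47%) for the averaged stretch effect, and 1 of them was a member, Creb3l2. That 1 of 40 members is near the share of all genes. With the block, an unadjusted p under 0.05 was reached by 15 members in WT and 8 in CAV1-/- cells, all of them higher. On average over genotypes 21 members were higher and 1 was lower. Over all 13665 genes there were 828 higher and 1151 lower in WT, and 899 and 925 in CAV1-/- cells. On average there were 1294 and 1578.

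Creb3l2 (chr6:37327255-37442146, minus strand, GRCm38) encodes an ER-resident transcription factor that is cleaved in the Golgi and is known to drive COPII genes for bulky secretory cargo. Its level went from 215 to 279 in replicate 1 and from 219.7 to 274 in replicate 2 in WT cells. In CAV1-/- cells it went from 205 to 271 in replicate 1 and from 228 to 338 in replicate 2. The static and stretched cultures did not overlap in either genotype. The averaged difference was 0.41 ± 0.10 (SE), a 1.33-fold level, with an adjusted p of 0.984 in limma without the block and 0.0363 with it. Across the alternative fits the adjusted p ran from 0.0363 to 1.00. Creb3l1, its paralogue known from collagen secretion in bone, had stretch differences of 0.16 and -0.29 in WT replicates 1 and 2 and 0.20 and -0.01 in CAV1-/- replicates 1 and 2.

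**Figure D1:**
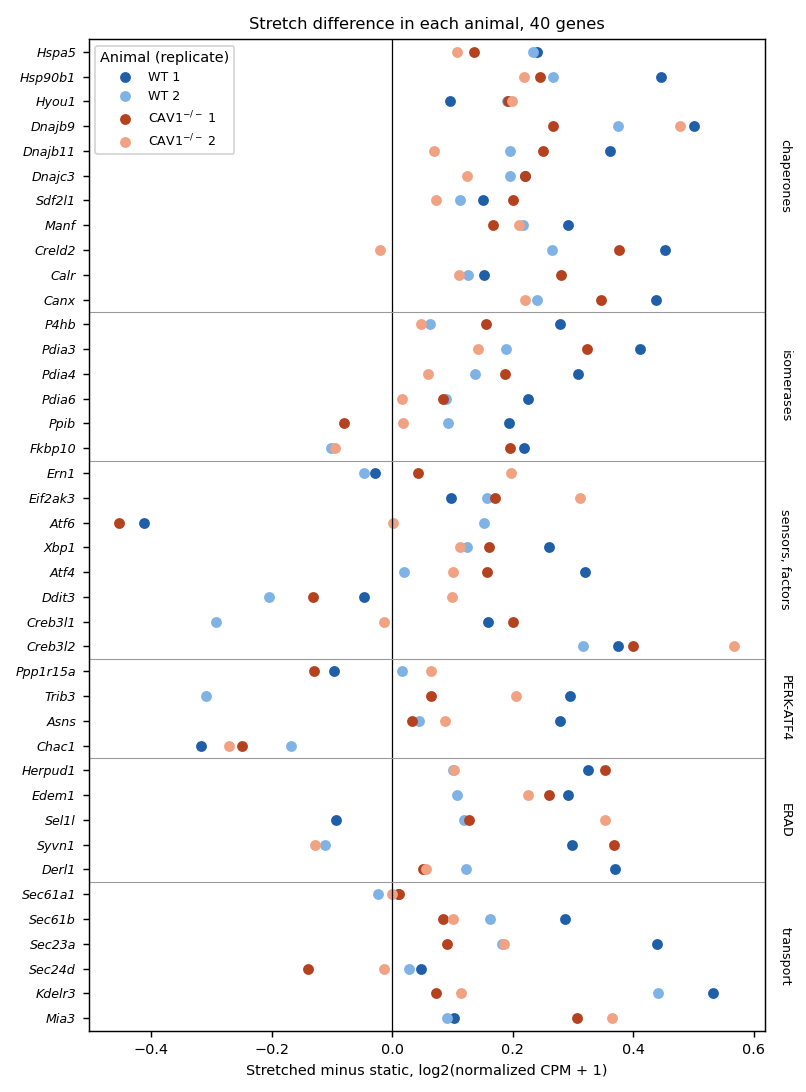
Stretched minus static level of the 40 genes on the log2(normalized CPM + 1) scale, 1 point per animal, grouped by role (ERAD is ER-associated degradation). For 26 genes all 4 points lie right of 0, and for Chac1 all 4 lie left of it.

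The 11 chaperones and co-chaperones had the largest median of the 6 roles in WT, 0.25, and all 11 were higher after stretch in both genotypes (CAV1-/- median 0.19). None passed the adjusted threshold. For Hspa5, the ATP-driven chaperone BiP that holds the sensors inactive, WT levels were 1241 and 1173 CPM in static and 1466 and 1379.8 in stretched cultures. The corresponding CAV1-/- levels were 1302 and 1206 when static and 1430.0 and 1298 when stretched. The WT cultures therefore did not overlap and the CAV1-/- cultures did, with differences of 0.24 ± 0.15 (SE) and 0.12 ± 0.15.

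Hsp90b1, the HSP90 family member of the ER lumen, went from 1584 to 2159.6 in replicate 1 and from 1437 to 1730.3 in replicate 2 of WT cells. The CAV1-/- cultures went from 1717 to 2036 in replicate 1 and from 1563 to 1819 in replicate 2. Canx, the membrane lectin that retains immature glycoproteins, stood at 737 and 679.5 in static and 999 and 803 in stretched WT cultures. In CAV1-/- MCs Canx stood at 774 and 769 before and 985 and 897 after stretch. Neither gene's static and stretched cultures overlapped in either genotype, and their averaged differences were 0.29 ± 0.13 and 0.31 ± 0.11, with limma adjusted p = 0.984 for both without the block and 0.0987 and 0.0808 with it. Manf, a small secreted protein that binds BiP, and Calr, the soluble lectin partner of Canx, also did not overlap between conditions in either genotype, at averaged differences of 0.22 ± 0.08 and 0.17 ± 0.10.

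Dnajb9, a co-chaperone of BiP that restrains IRE1, had the largest averaged difference of the chaperones, 0.41 ± 0.18 (SE). Its levels were 43.8 and 35.3 CPM in static and 62.4 and 46.1 in stretched WT cultures. CAV1-/- cultures held 40.4 and 27.1 when static and 48.8 and 38.2 when stretched. It was higher in every animal, but the animals of 1 genotype lay so far apart that the CAV1-/- cultures overlapped. For the averaged difference limma gave an adjusted p of 0.984 without the block and 0.0602 with it. Creld2, a secreted protein induced by ER stress, was at 58.5 and 55.4 in static and 80.4 and 66.8 in stretched WT cultures. Its CAV1-/- levels were 56.0 and 62.8 when static and 73.0 and 61.9 when stretched, where replicate 1 was higher after stretch and replicate 2 was not. The remaining chaperones, Hyou1, Dnajb11, Dnajc3 and Sdf2l1, were each higher in all 4 animals, with averaged differences of 0.13 to 0.22.

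The 6 isomerases had smaller differences than the chaperones. Their median was 0.16 in WT and 0.08 in CAV1-/- cells. The 4 disulfide isomerases P4hb, Pdia3, Pdia4 and Pdia6 were higher in all 4 animals, led by Pdia3 with 1062 and 1067 CPM in static and 1413 and 1216 in stretched WT cultures, and 992 and 1202 when static and 1242 and 1327 when stretched in CAV1-/- cultures. The prolyl isomerases Ppib and Fkbp10, which act on procollagen, were higher in 3 and 2 of the 4 animals. Of the exon bases of Ppib, 825 lie under exons of Snx22 on the other strand, so its reads may be mixed.

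Among the sensors and transcription factors there was no common direction in WT, where 4 of 8 were higher (median 0.04), and 6 of 8 were higher in CAV1-/- cells (median 0.13). Xbp1, whose mRNA is spliced by IRE1, stood at 112 and 100.9 CPM in static and 134 and 110.1 in stretched WT cultures. Its CAV1-/- levels were 104 and 131 when static and 116 and 142 when stretched. It was higher in all 4 animals, by 0.16 on average, and gene-level values do not separate the spliced form.

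Atf4, the factor translated when PERK is active, was 244 and 242 in static and 305 and 245 in stretched WT cultures. In CAV1-/- cultures it was 251 and 308 when static and 280.2 and 331 when stretched, again higher in all 4 animals and by 0.15 on average. The PERK gene Eif2ak3 itself had 31.4 and 28.0 CPM when static and 33.7 and 31.4 when stretched in WT, and 28.6 and 30.5 when static and 32.3 and 38.1 when stretched in CAV1-/- cells. All 3 genes were higher in every animal, and each overlapped between conditions in at least 1 genotype, Xbp1 in both, Atf4 in CAV1-/- cells and Eif2ak3 in WT.

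Ern1, the IRE1 gene, was lower after stretch in both WT animals (98.1 and 70.1 static, 96.1 and 67.8 stretched) and higher in both CAV1-/- animals (98.2 and 75.0 static, 101.2 and 86.2 stretched). Atf6 was at 142 and 117 in static and 107 and 130.5 in stretched WT cultures, and at 127 and 77.0 when static and 92.5 and 77.1 when stretched in CAV1-/- cultures. It was lower after stretch in replicate 1 of both genotypes, higher in WT replicate 2 and nearly level in CAV1-/- replicate 2. Its mean difference turned above 0 in WT without the static or the stretched culture of replicate 1 (0.0089 and 0.014), and in CAV1-/- cells without the static culture of replicate 1 (0.13). Those fits split an animal's pair and so mix in the difference between animals. Ddit3, which encodes the pro-apoptotic factor CHOP, overlapped between conditions in both genotypes, with 48.7 and 33.0 CPM when static and 47.1 and 28.5 when stretched in WT and 59.3 and 29.0 when static and 54.0 and 31.1 when stretched in CAV1-/- cells.

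The 4 targets of the PERK-ATF4 arm had medians of -0.02 in WT and 0.01 in CAV1-/- cells after stretch. Chac1, which degrades glutathione, was lower in every animal, going from 41.8 to 33.4 in replicate 1 and from 32.0 to 28.3 in replicate 2 of WT, and from 20.4 to 17.0 in replicate 1 and from 24.4 to 20.0 in replicate 2 of CAV1-/- cells. The averaged difference of -0.25 ± 0.14 had an adjusted p of 0.991 in limma without the block and 0.144 with it. Asns, the asparagine synthetase gene, was higher in all 4 animals by 0.11 on average. Trib3, a pseudokinase that feeds back on ATF4, and Ppp1r15a, the phosphatase subunit that ends the translational block, went in different directions in different animals.

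All 5 members of ER-associated degradation had higher means after stretch in both genotypes, with medians of 0.20 and 0.23. Herpud1, a membrane scaffold of the retrotranslocation complex, stood at 52.8 and 48.6 CPM in static and 66.4 and 52.2 in stretched WT cultures, and at 49.9 and 52.5 when static and 63.9 and 56.5 when stretched in CAV1-/- cultures. Edem1, a mannosidase-like factor that extracts glycoproteins, and Derl1, a channel component, were also higher in all 4 animals. Syvn1 (the ubiquitin ligase HRD1) was higher in replicate 1 and lower in replicate 2 of both genotypes, and Sel1l, its partner, was higher in 3 animals.

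In translocation and vesicle transport the genotypes were led by different genes. Kdelr3, a receptor that returns escaped chaperones from the Golgi, went from 54.2 to 78.8 in replicate 1 and from 59.8 to 81.6 in replicate 2 of WT cells, the largest WT difference of all members (0.49 ± 0.18). The CAV1-/- cultures went only from 77.0 to 81.0 in replicate 1 and from 98.0 to 106 in replicate 2. Mia3 (TANGO1), which loads procollagen into COPII vesicles, had its larger difference in CAV1-/- cells. It went from 146 to 157 in replicate 1 and from 149 to 159 in replicate 2 of WT, and from 161 to 199.6 in replicate 1 and from 157 to 202 in replicate 2 of CAV1-/- cells, a difference of 0.34 ± 0.09. Neither passed the adjusted threshold in limma (adjusted p = 1 for both), and the differences between the genotypes' responses are given with the interaction. The COPII coat gene Sec23a and the channel subunit Sec61b were higher in all 4 animals, by 0.22 and 0.16 on average, while the channel gene Sec61a1 differed by at most 0.02 on the log2 scale in any animal. Sec24d, another coat subunit, was at 253 and 249 CPM in static and 261 and 255 in stretched WT cultures, without overlap. Its CAV1-/- cultures were at 259.9 and 341 when static and 236 and 338 when stretched, with overlap. The sign of its CAV1-/- difference turned without the static culture of replicate 2 (0.12) or the stretched culture of replicate 1 (0.18). Those fits split an animal's pair, and within both CAV1-/- animals the difference was below 0 (-0.14 and -0.01).

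**Figure D2:**
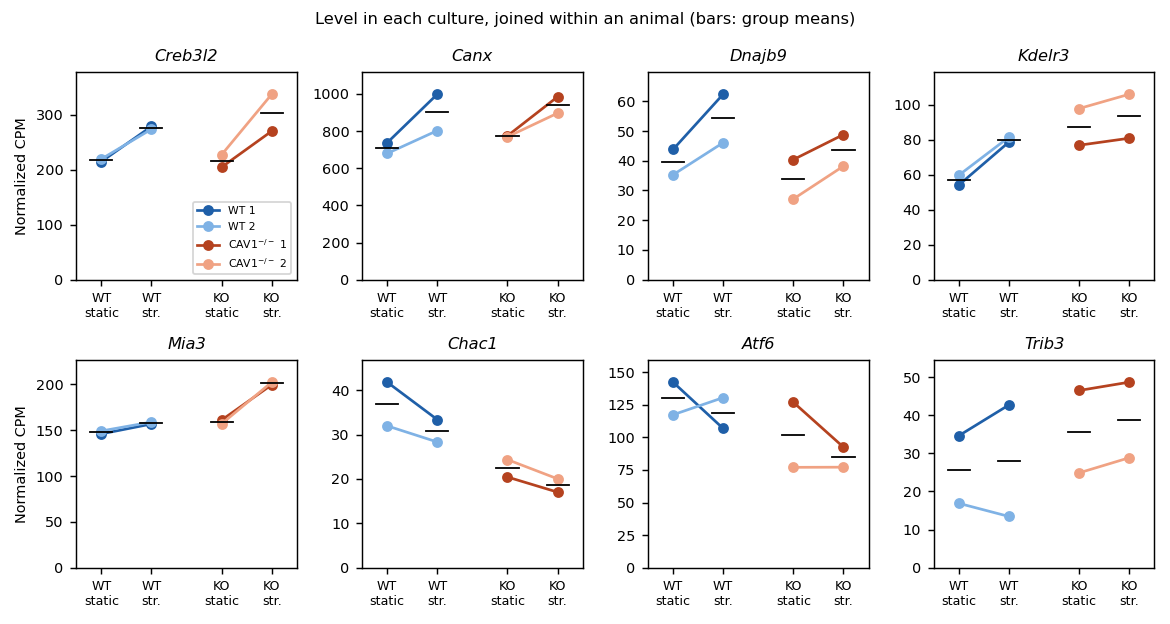
Normalized CPM of 8 named genes in each culture, with the static and stretched (str.) culture of an animal joined by a line, black bars for the group means, and KO for CAV1-/-. Creb3l2, Canx, Dnajb9, Kdelr3 and Mia3 slope upwards in all 4 animals, Chac1 slopes downwards in all 4, and Trib3 is separated by animal.

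Members with an ERSE or ERSE-II match in the window had higher means after stretch. All 10 of those with a row did so in both genotypes, with medians of 0.23 in WT and 0.18 in CAV1-/- cells. Within animals, 8 of the 10 were higher in all 4, and Syvn1 and Creld2 were the exceptions. Among the 23 members with a window and neither match, 15 were higher in all 4 animals, 18 had higher means in each genotype and the medians were 0.16 and 0.13. The match and the role overlap, since 7 of the 10 are chaperones, and the difference between these sets was not tested.

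Counting groups without overlap, 18 members were higher in both stretched WT cultures than in both static ones (13.9% of all genes) and 0 were lower (17.2% of all genes). In CAV1-/- cells 11 members were higher without overlap (12.4% of all genes) and 1, Chac1, was lower (11.9%). For 2 against 2 cultures, the smallest two-sided p of an exact permutation test on a single gene is 1 in 3. In such a comparison of 2 groups no gene could pass that test on its own values. The summed mesothelial markers were lower in the stretched culture of each animal. They went from 3898 to 2959 CPM in WT replicate 1, from 3739 to 3569.6 in WT replicate 2, from 1116 to 1045 in CAV1-/- replicate 1 and from 1019 to 854 in CAV1-/- replicate 2. Of the 11 markers, 5 were lower in all 4 animals and 1, Pdpn, was higher in all 4, going from 580.3 to 779 in WT replicate 1, from 481 to 596 in WT replicate 2, from 451 to 458 in CAV1-/- replicate 1, from 337 to 407 in CAV1-/- replicate 2. Of the 5 fibroblast markers, Pdgfra and Dcn were lower after stretch in all 4 animals. Pdgfra went from 264 to 154 in WT replicate 1, from 603 to 492 in WT replicate 2, from 55.4 to 19.3 in CAV1-/- replicate 1, from 706 to 489.7 in CAV1-/- replicate 2. Whether these markers bear on the stretch differences was not tested.

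The second question was whether loss of CAV1 changed these genes. Chac1, lower in CAV1-/- cells, had the largest difference of all members in both conditions. In static cultures 30 of 40 members were higher in CAV1-/- cells, with a median of 0.09 against -0.01 over all genes. In stretched cultures 26 were higher, with a median of 0.08 against 0.00. limma called 0 members in static cultures (0.0732% of all genes) and 0 in stretched cultures (0.0585%). An unadjusted p under 0.05 was reached by 2 members in static cultures (8.17% of all genes) and by 2 in stretched cultures (6.26%), shares below those of all genes. edgeR called 0 members in both, beside 0.0146% and 0.0439% of all genes. DESeq2 called 0 members in static cultures, beside 2.26% of all genes, and 1, Mia3, in stretched cultures, beside 1.73%. A count of 1 in 40 is near that share. Both medians moved when single cultures were left out. The static one was 0.044 without WT replicate 2 and 0.046 without CAV1-/- replicate 2. The stretched one was 0.16 without WT replicate 1, -0.074 without WT replicate 2 and 0.021 without CAV1-/- replicate 2.

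Chac1 was lower in every CAV1-/- culture than in every WT culture. Its 41.8 and 32.0 CPM in static WT cultures compare with 20.4 and 24.4 in static CAV1-/- cultures, and its 33.4 and 28.3 after stretch in WT with 17.0 and 20.0 in CAV1-/- cells. The differences were -0.69 ± 0.19 (SE) in static and -0.71 ± 0.19 in stretched cultures, the latter about 0.613 of the WT level, with adjusted p = 0.363 and 0.463 in limma. Its CARE match, printed above, lies 193 to 186 bases before the start. The other members of the PERK-ATF4 arm lay on the opposite side by their means. Ppp1r15a, Asns and Trib3 had higher means in CAV1-/- cells in both conditions, at 0.29, 0.33 and 0.47 in static cultures. Stretched Asns was at 150.2 and 94.0 CPM in WT and 147 and 132 in CAV1-/- cultures, both below WT replicate 1. Ppp1r15a stood at 30.3 and 25.2 CPM in static and 28.3 and 25.5 in stretched WT cultures. Its CAV1-/- cultures held 39.4 and 29.5 when static, overlapping WT, and 35.9 and 30.9 when stretched, without overlap. The sign of Trib3 rested on WT replicate 2, since without its static culture the static difference was -0.023 and without its stretched culture the stretched difference was -0.18.

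Atf6 had the next largest difference downwards in both conditions. The static cultures overlapped, at 142 and 117 CPM in WT and 127 and 77.0 in CAV1-/- cells, and the stretched cultures did not, at 107 and 130.5 in WT and 92.5 and 77.1 in CAV1-/- cells. The differences were -0.38 ± 0.26 and -0.48 ± 0.26, with adjusted p = 0.821 and 0.914 in limma. Dnajb9 followed with -0.24 ± 0.26 and -0.31 ± 0.26, both with overlapping cultures, and its static difference turned to 0.038 without the static culture of CAV1-/- replicate 2.

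The transport genes were the members with the most even direction of means. All 6 had higher means in CAV1-/- cells in both conditions, with medians of 0.23 in static and 0.17 in stretched cultures. Single cultures were less even. Sec61a1 in CAV1-/- replicate 1 (362 CPM static, 365 stretched) lay below both WT cultures of its condition (377 and 420, 380 and 413). Only replicate 2 (517 in both) lay above them. Stretched Sec24d was at 236 in CAV1-/- replicate 1 and 338 in replicate 2, against 261 and 255 in WT. Kdelr3 was 54.2 and 59.8 CPM in static WT and 77.0 and 98.0 in static CAV1-/- cultures, a difference of 0.60 ± 0.18 (adjusted p = 0.414, limma). After stretch its WT cultures reached 78.8 and 81.6 and overlapped the 81.0 and 106 of CAV1-/- cells. Sec23a stood at 161 and 152 in static WT and 191 and 229 in static CAV1-/- cultures, without overlap. In stretched cultures it stood at 219 and 173 in WT and 204 and 260.1 in CAV1-/- cells, with overlap.

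Mia3 was higher without overlap in both conditions. The static levels were 146 and 149 CPM in WT and 161 and 157 in CAV1-/- cells. After stretch they were 157 and 159 in WT and 199.6 and 202 in CAV1-/- cells, a difference of 0.35 ± 0.09 (SE) and a 1.27-fold level, with an adjusted p of 0.459 in limma and 0.0321 in DESeq2. Over the alternative fits the adjusted p ran from 0.0321 to 1.00. Both cultures of each group lay close together.

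Chaperones and isomerases showed no common genotype difference. Their medians were 0.05 and 0.05 in static cultures, and -0.06 and -0.02 in stretched cultures. Hspa5 differed by 0.05 ± 0.15 in static and -0.06 ± 0.15 in stretched cultures. Of all members, 10 were higher (16.1% of all genes) and 2 lower (20.8%) in CAV1-/- than in WT without overlap when static, and 2 were higher (14.6%) and 2 lower (15.9%) when stretched. The static count was 10 members, among them Manf, Canx, P4hb, Atf4, Asns and Derl1 beside 4 transport genes, and Calr was lower beside Chac1. Without CAV1-/- replicate 1, 28 members had higher means in static cultures (median 0.10) and 25 in stretched cultures (median 0.06). The mesothelial marker sums given above differ between the genotypes in the same libraries, and their part in these differences was not tested.

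**Figure D3:**
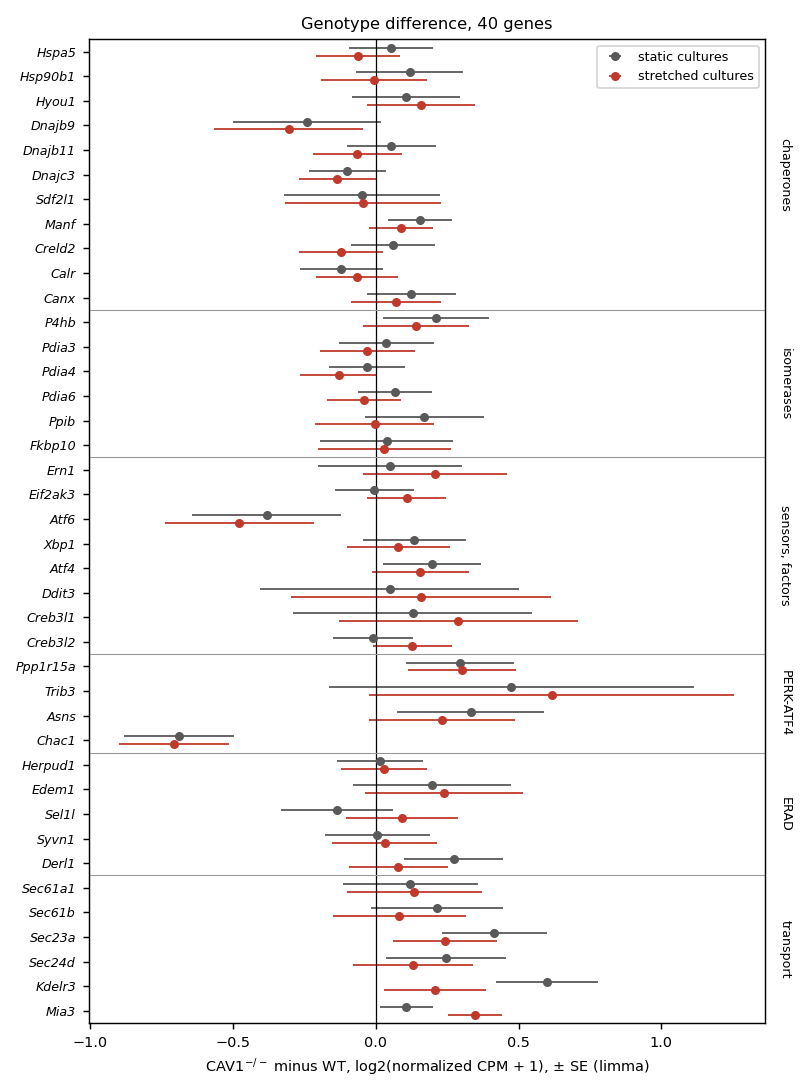
CAV1-/- minus WT difference of the 40 genes with its standard error from limma (2 cultures a group), in static cultures (grey) and stretched cultures (red), on the log2(normalized CPM + 1) scale. Chac1 lies furthest left in both conditions, and furthest right lie Kdelr3 in static and Trib3 in stretched cultures.

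The third question was whether the genotypes responded differently to stretch. The interaction called 0 members and 0% of all genes in limma, and 0 members and 0% of all genes in edgeR and in DESeq2. At an unadjusted p under 0.05 there were 0 members without the block, beside 0.483% of all genes. With the block there was 1, Kdelr3 (-0.39 ± 0.12, limma adjusted p = 0.947), beside 374 genes above and 207 below 0 of all 13665. The interaction's median over members was -0.05, with 16 of 40 above 0, against 0.01 over all genes. That median was 0.081 without the stretched culture of WT replicate 1, -0.16 without that of WT replicate 2, and -0.12 and -0.0041 without the static culture of WT replicate 1 or 2. These fits, too, split an animal's pair. The largest interactions had opposite signs in the transport genes: Kdelr3 had the smaller stretch difference in CAV1-/- cells (-0.39 ± 0.25, adjusted p = 1) and Mia3 the larger one (0.24 ± 0.13, adjusted p = 1).

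How the animals differed among themselves was as large a feature as stretch. In WT the median size of the difference between the 2 animals was 0.17 over members, beside 0.17 for the difference between conditions. There 19 of 40 members differed more between animals than between conditions, and 61.1% of all genes did. In CAV1-/- cells the sizes were 0.25 and 0.14, and 27 of 40 members differed more between animals, as did 69.0% of all genes. Across both genotypes, 16 members were higher in replicate 1 than in replicate 2 in all 4 groups (21.7% of all genes), and 3 were higher in replicate 2 in all 4 (21.4%).

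Trib3 and Ddit3, both known targets of ATF4, differed most between replicates 1 and 2. Trib3 stood at 34.6 and 42.7 CPM in the cultures of WT replicate 1, and at 16.9 and 13.4 in those of WT replicate 2. Its CAV1-/- levels were 46.5 and 48.7 in replicate 1 and 24.9 and 28.8 in replicate 2. Ddit3, whose values are given above, was likewise higher in replicate 1 of both genotypes, by a median of 0.74 on the log2 scale over the 4 groups, and Trib3 by 0.94. Among the chaperones, Sdf2l1 (0.42), Dnajb9 (0.39) and Hyou1 (0.25) lay on the same side.

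The 3 genes on the opposite side in all 4 groups were Ppib, Sec61a1 and Kdelr3. Creb3l1 was higher in replicate 2 in 3 of the groups, and most clearly in CAV1-/- cells, with 300.5 and 298 CPM in replicate 2 against 142 and 164 in replicate 1. The summed level of 5 fibroblast markers differed with replicate number too: it was 8097 and 7447 CPM in WT replicate 1 and 13880.3 and 10902 in WT replicate 2. The CAV1-/- sums were 7083 and 7844 in replicate 1 and 16948 and 15305 in replicate 2. Most of each sum was Col1a1, at 7291 and 7085 CPM in WT replicate 1 and 12305 and 9488 in WT replicate 2. In CAV1-/- cultures Col1a1 stood at 6884 and 7782 in replicate 1 and 15404 and 14066 in replicate 2. The other markers, Pdgfra, Dpt, Dcn and Lum, were each higher in replicate 2 than in replicate 1 of every group. The part of these markers in the differences between animals was not tested.

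**Figure D4:**
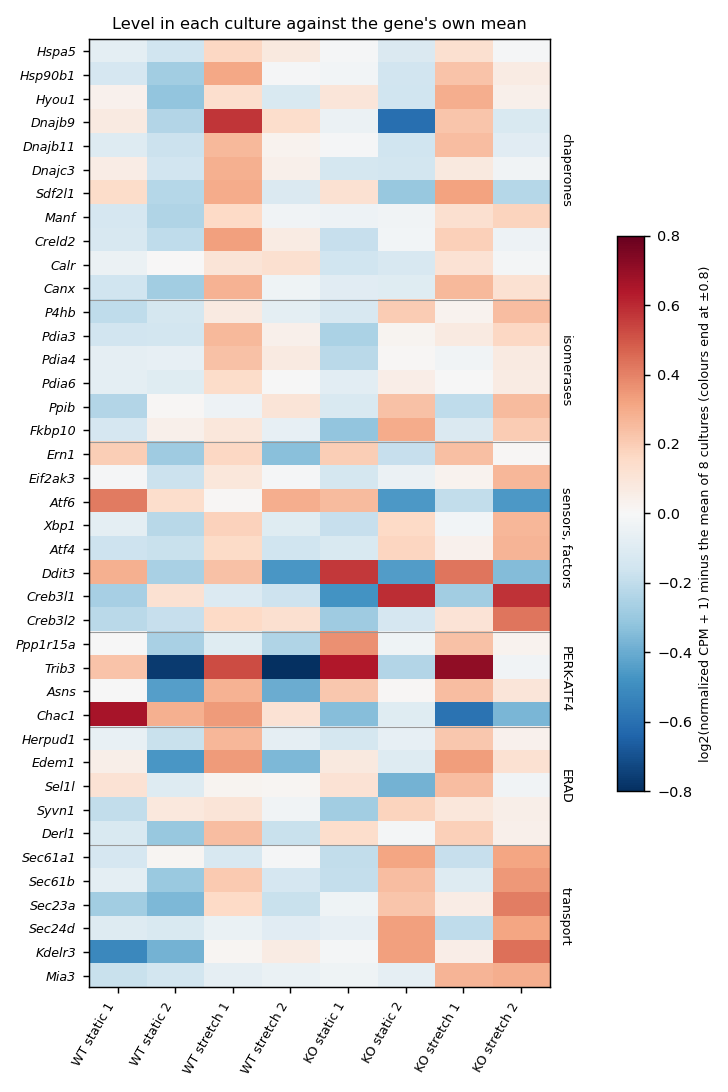
Level of the 40 genes in each of the 8 cultures as log2(normalized CPM + 1) minus the gene's mean over all cultures, by role, with KO for CAV1-/-. The chaperone rows are redder in the stretched cultures, and the rows of Trib3 and Ddit3 alternate with the replicate number. That of Creb3l1 does so the other way round, except in the stretched WT cultures.

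Further genes of the same machinery were taken from lists of the pathway. limma called 0 of them in each of the 6 comparisons, beside at most 0.0732% of all genes. At an unadjusted p under 0.05 it held at most 2 genes of a list in 1 comparison, beside 0.483% to 8.17% of all genes. edgeR called 0, beside at most 0.0439% of all genes. DESeq2 called 1, Slc7a11, between genotypes in static cultures, where it called 2.26% of all genes. That 1 call is no result about these lists. Of 28 other ER folding genes, 20 were higher after stretch in WT (median 0.11) and 17 in CAV1-/- cells (median 0.04). The transmembrane oxidoreductase Tmx1 was 58.7 and 62.1 CPM in static and 88.0 and 83.3 in stretched WT cultures (0.50 ± 0.10), and 67.2 and 72.3 when static and 80.8 and 79.0 when stretched in CAV1-/- cultures. The oxidase gene Ero1lb had a difference of 0.53 ± 0.43 in WT, with overlap. In CAV1-/- cells the largest differences were downwards, in the prolyl isomerase Ppic (-0.41 ± 0.55) and the BiP exchange factor Sil1 (-0.37 ± 0.43), both with overlap. Between genotypes the oxidase gene Ero1l (0.54 ± 0.94, static) and Cnpy2 (-0.47 ± 0.41) differed most and overlapped.

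Of 37 other transport genes, 31 were higher after stretch in WT (median 0.14) and 26 in CAV1-/- cells (median 0.06). Between genotypes 31 had higher means in CAV1-/- cells when static (median 0.13) and 28 when stretched (median 0.05). The cargo receptor Tmed2 did not overlap between conditions in either genotype, at 259 and 233 CPM in static and 368 and 289 in stretched WT cultures and 273 and 305 when static and 328 and 367 when stretched in CAV1-/- cultures. Sec24a, a cargo-binding COPII subunit, went from 53.2 to 72.1 in replicate 1 and from 49.2 to 66.3 in replicate 2 of CAV1-/- cells (0.43 ± 0.11), and in stretched cultures it was higher in CAV1-/- than in WT cells by 0.37 ± 0.11. Srp54a of the signal recognition particle differed by 0.54 ± 0.22 after stretch in WT and by -0.36 ± 0.22 between genotypes after stretch. Ssr3 and Kdelr2 led in static cultures between genotypes, at 0.31 ± 0.19 and 0.30 ± 0.21. The 16 other degradation genes had medians of 0.12 in WT and 0.06 in CAV1-/- cells, with Ubxn4 at 0.23 ± 0.17 and 0.30 ± 0.17 and Derl2 at 0.24 ± 0.12 in WT. Edem2 was at -0.18 in CAV1-/- cells, and Edem3 (0.22, static) and Selk (-0.23, stretched) led between genotypes.

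Of 33 other targets of the PERK-ATF4 arm, 26 had higher means in CAV1-/- than in WT cells when static (median 0.14) and 28 when stretched (median 0.20). After stretch 23 of them had higher means in WT (median 0.08) and 21 in CAV1-/- cells (median 0.09). The cystine transporter gene Slc7a11 stood at 21.8 and 13.6 CPM in static WT cultures and at 237 and 31.9 in static CAV1-/- cultures, and after stretch at 22.3 and 19.0 in WT and 189 and 45.9 in CAV1-/- cultures. Its values were far higher in CAV1-/- replicate 1, the animal with the highest leukocyte markers, than in replicate 2, and the part of those markers was not tested. Atf3, a stress-induced factor, had 33.4 and 5.04 CPM in static and 23.7 and 4.60 in stretched CAV1-/- cultures against 5.88 and 3.39 when static and 4.83 and 4.50 when stretched in WT, so that only CAV1-/- replicate 1 was high. After stretch, Nupr1 differed by 0.50 ± 0.23 in WT and 0.41 ± 0.23 in CAV1-/- cells, Ddit4 by 0.50 ± 0.18 in CAV1-/- cells, and the transporter gene Slc1a5 by -0.54 ± 0.50 in WT.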

How the data were processed

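RNA-seq was done on 8 cultures of primary mouse peritoneal MCs (4 groups of 2). Per the labels and the study's methods, the authors made poly(A) libraries, trimmed reads with cutadapt, quantified genes with RSEM on GRCm38 and normalized expected counts by TMM. The deposited signal is thus normalized CPM. Dividing by the step of 1 read gave whole reads for 100% of values (tolerance 0.01), 9777738 to 21203938 per library. Whether libraries kept strand was not given in the sources used here.

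Genes with at least 1 CPM in 2 libraries (13665 of 13687, which kept all 40 members) were tested in limma 3.58.1 (R 4.3.3) on log2(CPM + 1), with 1 mean per group and Benjamini-Hochberg adjustment. The same animal gave both cultures of a replicate (correlation of deviations from group means 0.70 in WT and 0.85 in CAV1-/-), so the animal pairs the stretch comparisons. Alternatives were pseudocounts of 0.1 and 5, other filters and scalings, the block, edgeR 4.0.16, DESeq2 1.42.0 and left-out libraries. The fits were also run on simulated data. Whether they find differences as small as those of the members, between animals as unlike as these, was not tested. Members and lists were chosen with earlier results of these data known. Named were the factors and sensors, members called in any fit, the 3 largest rises and falls of each pairwise comparison, and from other lists the 2 largest differences. Gene positions came from GENCODE M21 and promoters from RefSeq. Without the block, p-values treat the 8 cultures as independent, although each animal gave 2 of them. With the block, stretch p-values are measured against how the stretch difference varied between animals. Both rest on 2 animals a genotype.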

Additional observations from a re-analysis of the deposited data

Results flagged for a closer look

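Of the 40 members, 2 differed between conditions in opposite directions in the 2 genotypes, with both animals of each genotype on the same side. 8.98% of all genes tested did so, and 5% of the members. Ern1, the IRE1 sensor, differed between stretched and static culture by -0.03 and -0.05 on the log2 scale in WT and by 0.04 and 0.20 in CAV1-/- cells, an interaction of 0.16. Sec24d, a COPII subunit, differed by 0.05 and 0.03 in WT and by -0.14 and -0.01 in CAV1-/- cells, an interaction of -0.12. Both interactions had an adjusted p of 1 in limma, edgeR and DESeq2, and of 0.947 and 0.95 in limma with the replicate block.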

How the results depend on the processing

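With 2 animals a genotype, counts of called genes depended on the fit, and those of members hardly did. Members called were 0 in every comparison and setting except Mia3 in stretched cultures between genotypes by DESeq2 (1 member) and Creb3l2 for the averaged stretch effect with the replicate block (1 member). Genes called for stretch numbered 0 in WT, 0 in CAV1-/- and 0 averaged, and 3, 7 and 34 by DESeq2. With the replicate block, where the animal pairs the cultures, they were 0, 1 and 201. Between genotypes 10 genes were called when static and 8 when stretched. DESeq2 gave 309 and 237, and edgeR gave 2 and 6. The replicate block on number gave 246 and 110, though same-numbered WT and CAV1-/- animals share only a number (correlation of deviations 0.52 and 0.48, 2 pairs). The fit to only the 4 libraries compared gave 0 and 0, and leaving out CAV1-/- replicate 1 gave 0 and 0. Leaving out single cultures gave 0 to 8 when static and 0 to 7 when stretched.

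The median of members stayed above 0 in every setting for stretch (0.05 to 0.32 in WT, 0.10 to 0.18 in CAV1-/-) and static genotype (0.04 to 0.13). It turned in 1 setting for stretched genotype (-0.07 to 0.16) and for the interaction (-0.16 to 0.08). Single members reversed when 1 culture was left out, with ranges of -0.27 to 0.014 for WT stretch of Atf6, -0.48 to 0.23 for WT stretch of Ddit3, -0.58 to 0.13 for CAV1-/- stretch of Atf6 (and 0.0020 without CAV1-/- replicate 1), -0.34 to 0.18 for CAV1-/- stretch of Sec24d, -0.023 to 0.97 for static genotype of Trib3, -0.52 to 0.038 for static genotype of Dnajb9 and -0.18 to 1.42 for stretched genotype of Trib3. The stretch and interaction ranges include fits that split an animal's pair, so that they mix the difference between animals with that of stretch. Within animals, Ddit3 was lower after stretch in both WT replicates (-0.05 and -0.20). Sec24d was lower in both CAV1-/- replicates (-0.14 and -0.01). Atf6 differed by -0.41 and 0.15 in WT replicates 1 and 2, and by -0.45 and 0.0020 in CAV1-/- replicates 1 and 2. The causes of the genotype reversals were not tested.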
